A study of Arabidopsis thaliana and Zea mays with 12 samples.

Results

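The near on-off genes between the Arabidopsis phenotypes Br and Ag were 53 genes that the array's annotation lists by a locus code alone, 26 higher in Br and 27 higher in Ag. They were chosen by the deposited intensities themselves. A member had all 3 arrays of one phenotype at 80 or more and all 3 of the other at least 2-fold below the lowest of those. The rule was asked of the 11932 probe sets with exactly 1 listed gene and a locus code for a symbol, out of 22746 on the array without the manufacturer's controls. 1 further probe set of that kind is left out by the rule and was not analysed here. Each member gene was read by 1 member probe set. Because this contrast chose the genes, their differences are described here and carry no test.

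The samples were leaf tissue, or aerial parts, of Arabidopsis thaliana grown from seed for 2 weeks. Plants were harvested near midday of the light period, with 3 arrays for Br and 3 for Ag. The labels call the arrays biological replicates and give no strain, allele or treatment for either phenotype. RNA of several plants was pooled for each array, so the spread is that between pools. In such bulk RNA, fewer cells of a type and less RNA per cell cannot be told apart. Maize arrays of the same series were not used here.

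Each locus code stands for a gene at a fixed place on one of the 5 chromosomes, and the code AT3G47070 lies on chromosome 3. The files and the gene table give no function for these loci, so the roles below are general background on each gene's protein family, not results. Arabidopsis carries large families of F-box proteins, receptor-like kinases, leucine-rich repeat proteins and oxidoreductases, many of them in tandem arrays of similar neighbours. F-box proteins choose proteins for breakdown, and receptor-like kinases sense signals at the cell surface. An array signal is the binding of labelled RNA to a set of short oligos, so it depends on the sequence as well as on the amount of the transcript.

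The gap ratio is used below for the lowest array of the high phenotype over the highest array of the low one. Its median was 2.67 for the genes higher in Br and 3.26 for the genes higher in Ag. The lowest ratios were 2.01 and 2.05. The near on-off name therefore covers unlike cases. Signals in the lower quartile of an array, which was 6.78 to 9.95 intensity units, may be no more than background, so a ratio over such signals is given below as a lower bound against the quartile of each low array. This bound was chosen after the values were seen. The ratio reached 10 in 3 of the genes higher in Br and in 6 of those higher in Ag, and it was under 3 in 15 and 11. With the bound in place of the ratio, 3 and 6 genes still reached 10, while 1 gene in place of 4 reached 50, AT2G25510. The low phenotype fell in the dimmest quartile of signals on all 3 of its arrays for 1 gene higher in Br and for 4 higher in Ag. At the other end, 14 genes higher in Br and 11 higher in Ag had no low array under the median signal of that array. In those genes both phenotypes had signals in the upper part of their arrays.

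**Figure D1:**
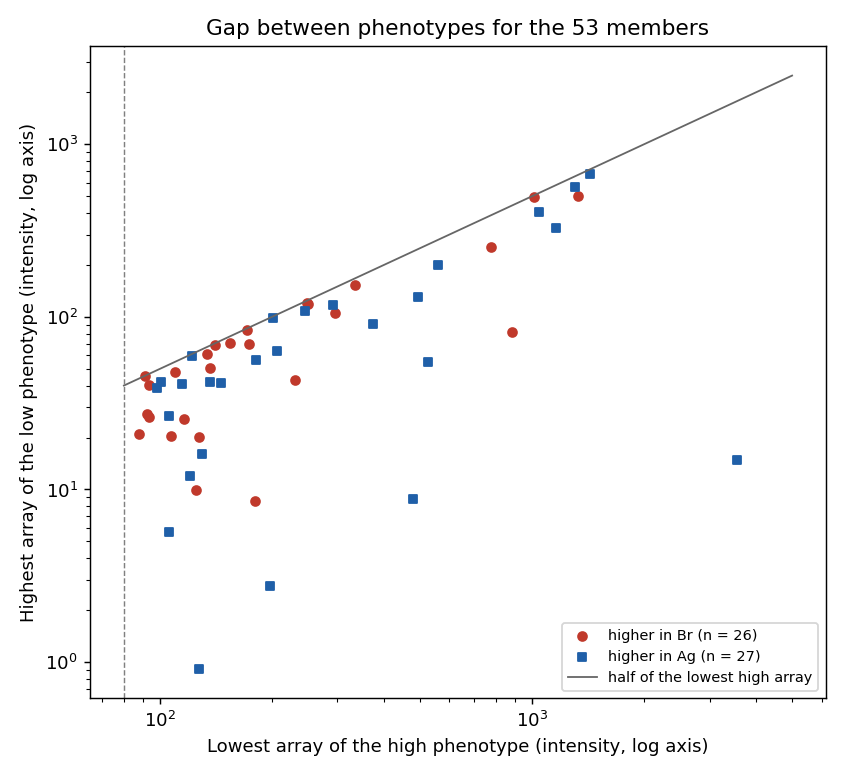
Lowest array of the high phenotype (horizontal, intensity, log axis) against the highest array of the low phenotype (vertical, intensity, log axis) for the 53 genes, circles for higher in Br and squares for higher in Ag. Points lie under the line that marks a 2-fold gap, and the dashed line marks 80. AT2G25510 lies alone at the right with a gap ratio of 239, and the lowest points have Br signals in the lower quartile of the array, where their height cannot be read.

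The widest gap was on the side of Ag, in AT2G25510, for which no role is given here. AT2G25510 read 14.9, 11.8 and 4.31 on the Br arrays, against 4291, 3904 and 3553 on the Ag arrays, a gap ratio of 239. AT3G44430 read 0.77, 0.86 and 0.92 in Br and 146, 178 and 127 in Ag, which put Ag at least 12.8-fold higher. For both genes all 3 Br arrays were far below every Ag array. AT1G23960 read 1.23, 0.53 and 2.77 in Br and 258, 198 and 260 in Ag, at least 19.9-fold higher. AT3G47250 read 8.86, 7.83 and 3.15 in Br and 479, 562 and 523 in Ag, at least 48.1-fold higher. No role is given for these genes either, and their order by width cannot be read, since all 3 Br arrays of each were in the lower quartile. AT5G26270 read 54.9, 27.8 and 28.4 in Br and 524, 696 and 619 in Ag. Its Br signals lay around the array medians, which were 35.3 to 37.5 in Br and 32.3 to 35.8 in Ag.

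Proteins of signalling and protein binding were among the next widest on that side. AT5G45500, of the leucine-rich repeat type, read 5.67, 0.67 and 2.15 in Br and 132, 106 and 136 in Ag, at least 10.6-fold higher. AT1G65370 encodes a TRAF-like protein, a fold that binds partner proteins. Its signal was 11.7, 8.06 and 12.01 in Br and 126, 120 and 205 in Ag, a gap ratio of 10.0. The genes higher in Ag also held 2 S-locus lectin receptor-like kinases, membrane proteins that relay signals from outside the cell. The gap ratio was 8.05 for AT1G11280 and only 3.24 for AT4G27300. AT1G11280 read 14.4, 16.1 and 6.28 in Br and 131, 130 and 135 in Ag, with an SD of 2.58 over the Ag arrays. AT4G27300, the other kinase, read 22.5, 42.1 and 32.7 in Br and 137, 180 and 196 in Ag. The Ag arrays of AT1G11280 were close together, and those of AT4G27300 spread more widely. AT4G27050, an F-box protein gene, and AT2G29670, for a protein of tetratricopeptide repeats, had narrower gaps. AT4G27050 averaged 101 ± 6.78 in Br and 258 ± 13.1 in Ag (SD, n = 3 each, as for all means below). AT2G29670 read 674, 452 and 337 in Br and 1519, 2174 and 1436 in Ag.

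Oxidoreductases made up 6 of the 27 genes higher in Ag and 1 of the 26 higher in Br. Classes were assigned after the values were seen, so the counts are descriptive. The share of this class over all probe sets is not known, and 9 of the 27 and 6 of the 26 had no role given. The counts therefore do not set the directions apart. AT5G16010, of the steroid reductase family, read 327, 187 and 247 in Br and 1339, 1159 and 1233 in Ag. AT1G52590, of the thiol-disulphide oxidoreductase family, read 91.2, 130 and 95.8 in Br and 539, 495 and 654 in Ag. In both genes the lowest Ag array was over 3-fold above the highest Br array. AT4G20830, a berberine bridge enzyme-like oxidase gene, read 41.5, 40.02 and 26.1 in Br and 156, 146 and 192 in Ag. The other listed members were AT2G02400, like cinnamoyl-CoA reductases, at 42.6 ± 12.3 in Br and 192 ± 13.8 in Ag, and AT1G32220, with a nucleotide-binding Rossmann fold, at 176 ± 21.4 and 614 ± 62.8. AT2G29290, a short-chain dehydrogenase of the tropinone reductase kind, averaged 369 ± 51.4 in Br and 1124 ± 85.8 in Ag. AT2G29320, of the same family and the 1 oxidoreductase higher in Br, averaged 120 ± 11.0 in Br and 43.1 ± 5.85 in Ag.

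Of the remaining genes higher in Ag, 2 encode methyltransferases that take the methyl group from S-adenosylmethionine. AT2G32160 read 9.94, 17.6 and 26.5 in Br and 177, 106 and 249 in Ag, the widest relative spread over the Ag arrays in this direction. AT1G55450 averaged 52.1 ± 9.68 in Br and 218 ± 10.9 in Ag. AT1G78460, of the SOUL family of haem-binding proteins, read 76.8, 88.2 and 91.4 in Br and 376, 452 and 374 in Ag. The sugar isomerase-like AT5G52190 averaged 28.2 ± 12.5 in Br and 144 ± 42.1 in Ag. The glycosyltransferase-like AT4G16710 averaged 30.4 ± 7.84 and 108 ± 9.45, and AT4G22380, for a ribosomal protein of the L7Ae kind, 35.4 ± 8.65 and 117 ± 20.8. All 3 kept Br signals of 16.0 or more. Among the genes with no role given, AT2G20670 read 563, 565 and 494 in Br and 1307, 1644 and 1713 in Ag. AT1G22890 averaged 84.6 ± 33.0 in Br and 357 ± 88.8 in Ag. AT3G15900 averaged 93.4 ± 5.91 and 228 ± 30.7, and AT1G34630 39.6 ± 17.2 and 134 ± 10.7. Gap ratios of these 4 ran from 2.05 to 2.49.

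**Figure D2:**
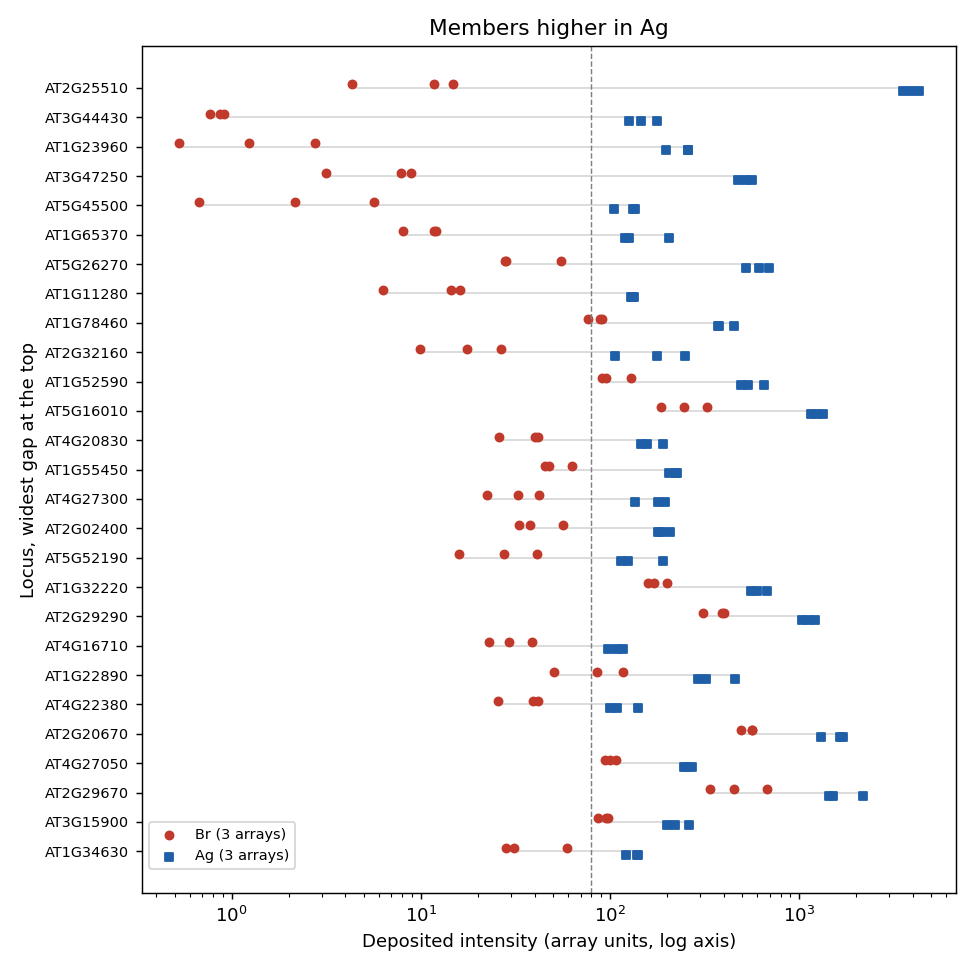
Deposited intensity (log axis) on each of the 3 Br arrays (circles) and 3 Ag arrays (squares) for the 27 genes higher in Ag, widest gap at the top. The first 4 genes read under 15 on all Br arrays, and the dashed line marks 80.

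Among the genes higher in Br, AT4G20480 and AT3G19520, with no role given, had wide gaps. AT4G20480 read 180, 228 and 236 on the Br arrays, against 8.53, 2.84 and 1.12 on the Ag arrays, at least 18.2-fold higher in Br. AT3G19520 read 130, 126 and 125 in Br and 9.93, 1.06 and 0.23 in Ag, a gap ratio of 12.6. The Br arrays had an SD of 2.64, and the first Ag array was well above the other Ag arrays. AT5G24480, also without a role here, read 326, 151 and 116 in Br and 19.7, 14.3 and 25.6 in Ag. Its first Br array was over 2-fold above the other Br arrays.

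The class of cell surface, secreted and membrane proteins was given to 6 of the 26 and to 0 of the 27 higher in Ag. Each gene was put in 1 class, and 9 of the 27 had no role given. Others of the 27 may therefore be such proteins. The 2 receptor-like kinases higher in Ag are membrane proteins too but were put in a class of their own. The share of this class over all probe sets is not known, so the counts do not set the directions apart. AT3G22240 encodes a small cysteine-rich membrane protein. Its signal was 886, 1333 and 1168 in Br and 81.7, 31.1 and 25.7 in Ag, a gap ratio of 10.8. AT5G55450, of the lipid transfer protein family, read 128, 139 and 191 in Br and 13.3, 20.2 and 1.43 in Ag. The Ag arrays of both genes spread widely among themselves, and all lay below every Br array. AT2G20870, annotated generally as a cell wall protein, read 126, 87.7 and 187 in Br and 20.8, 12.4 and 13.9 in Ag. AT1G68600, of the aluminium-activated malate transporter family of anion channels, read 93.3, 191 and 126 in Br and 26.1, 25.7 and 13.6 in Ag. AT3G27200, a copper-binding cupredoxin, read 92.2, 135 and 102 in Br and 27.2, 2.41 and 14.2 in Ag. For these 3 the lowest Br array was not far above the level of 80 that the rule asked. AT3G44100, with a lipid recognition domain, averaged 314 ± 59.5 in Br and 117 ± 1.81 in Ag.

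Plastid proteins made up 4 of the 26 and mitochondrial proteins 2, and the shares of these classes over all probe sets are not known. Each gene was put in 1 class, so genes of other classes, in either direction, may also act in these organelles. AT3G47070, for a soluble phosphoprotein of the thylakoid, read 1381, 1330 and 1463 in Br and 502, 485 and 456 in Ag. AT3G26070, of the fibrillins that coat plastid lipid bodies, read 1176, 857 and 777 in Br and 230, 180 and 256 in Ag. Its probe set is of the kind shared between similar transcripts, the 1 such set among the 53 members. AT4G26555, an immunophilin-type isomerase of the plastid, read 295, 385 and 427 in Br and 90.3, 80.1 and 106 in Ag. AT3G43520, of the plastid fatty acid export family, averaged 351 ± 23.99 in Br and 146 ± 9.77 in Ag. The mitochondrial genes were AT2G01090, for the hinge subunit of the respiratory cytochrome bc1 complex, at 102 ± 8.39 in Br and 35.7 ± 4.12 in Ag, and AT3G01740, for a ribosomal protein of the large subunit, at 150 ± 27.1 and 54.9 ± 7.53. The lowest Ag array among these 6 genes read 32.2, in AT2G01090.

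Enzymes and regulators completed the genes higher in Br. AT2G35820, of the ureidoglycolate hydrolase family that acts in purine breakdown, read 253, 231 and 247 in Br and 43.0, 15.9 and 24.9 in Ag, a gap ratio of 5.38. AT3G23880, an F-box protein gene, read 125, 107 and 108 in Br and 20.3, 13.01 and 1.69 in Ag, a gap ratio of 5.25. AT3G62550, of the universal stress protein family, read 2575, 1094 and 1012 in Br and 494, 161 and 97.02 in Ag. In AT3G62550 the first array was the highest of both phenotypes, and its gap ratio of 2.05 sets the first Ag array against the Br array labelled 3. AT4G37180, for a MYB-like transcription factor, averaged 206 ± 37.3 in Br and 82.4 ± 1.36 in Ag. AT1G31920, for a pentatricopeptide repeat protein, averaged 220 ± 46.6 in Br and 68.8 ± 1.02 in Ag. AT4G07390, like a protein for the use of dolichol-linked mannose, averaged 152 ± 10.9 in Br and 54.5 ± 12.4 in Ag. AT1G07750, of the cupin fold, averaged 277 ± 44.3 and 115 ± 8.42. Ag arrays of the regulators AT4G37180 and AT1G31920 were closer together than their Br arrays. The genes left had no role given: AT1G52720 averaged 159 ± 26.3 in Br and 48.1 ± 4.09 in Ag, AT4G13150 159 ± 3.98 and 67.0 ± 3.08, and AT3G29075 105 ± 12.3 and 35.5 ± 9.02.

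**Figure D3:**
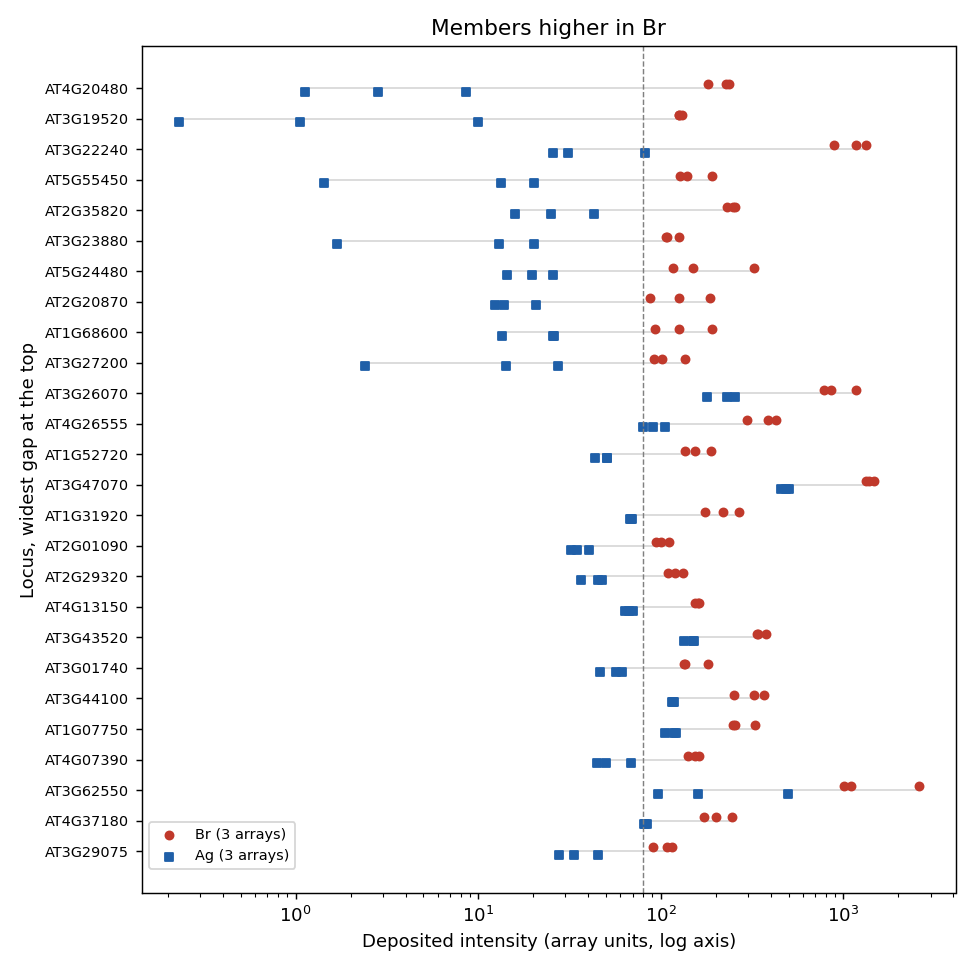
Deposited intensity (log axis) on each of the 3 Br arrays (circles) and 3 Ag arrays (squares) for the 26 genes higher in Br, widest gap at the top. The dashed line marks 80, and in the 2 uppermost rows the first Ag array is the highest of the Ag arrays.

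Values near the limits of the rule show where the set ends. Just inside on the ratio were AT3G29075 and AT4G37180 for Br, at 2.01 and 2.04, and AT1G34630 and AT3G15900 for Ag, both at 2.05. Just outside were AT5G22460 and AT3G52500 for Br, at 1.88 and 1.85, and AT3G10860 and AT3G01860 for Ag, at 1.97 and 1.94. On the level, AT2G20870 entered with a lowest Br array of 87.7, while AT4G22040 stayed out at 71.5 in spite of a gap ratio of 17.5. AT2G29300, described below, stayed out at 68.9. For Ag, AT4G16710 and AT4G22380 entered at 98.2 and 101, and AT5G43440 and AT3G61010 stayed out at 77.5 and 74.1. Ratios between 1.5 and 2 were found for 25 further probe sets in the direction of Br and 37 in that of Ag.

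The same rule picked 7 probe sets higher in Br and 8 higher in Ag among the 1580 with a gene symbol. Among the 9233 with several genes or none listed it picked 28 and 26. With the locus codes, these kinds of probe set gave 61 in each direction. Of the 2688 locus-code probe sets with all Br arrays at 80 or more, 0.967% were members. For Ag the share was 1.03% of 2633. From chromosome 1 to 5, the genes higher in Br numbered 4, 4, 11, 5 and 2, and those higher in Ag 9, 6, 3, 5 and 4. Both directions joined, that is 24.5%, 18.9%, 26.4%, 18.9% and 11.3%, beside 26%, 16.5%, 20.5%, 14.5% and 22.6% of the probe sets the rule was asked of. The shares were not tested, and chromosome 3 held the most genes higher in Br and the fewest higher in Ag.

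Only 2 members had a further probe set. For AT4G13150 it was dim, at 18.5, 14.3 and 22.9 in Br and 17.9, 1.36 and 1.80 in Ag, and the phenotypes overlapped. For AT4G20830 it is listed with AT4G20840 as well and read 28.5, 33.6 and 26.1 in Br and 63.0, 49.8 and 79.9 in Ag. The Br arrays lay below all Ag arrays there too, though this set shares the contrast the rule used. The other members rest on 1 probe set each, and the letters of the oligos were not used here.

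The first Br array stood between the phenotypes on the first principal component of all probe sets, which held 45.5% of the variance. It lay at 5.57, with the other Br arrays at 34.5 and 42.6 and the Ag arrays from -32.8 to -24.6. In the members it was the Br array nearest to Ag in 12 of the 26 genes higher in Br, and each of the other Br arrays in 7. Among the 27 genes higher in Ag it was nearest in 10, the second Br array in 9 and the third in 8. The first Ag array was the one nearest to Br in 16 of the 26. Among the genes higher in Ag, the Ag array nearest to Br was the first in 9, the second in 11 and the third in 7. With the first Br array left out, the rule took 54 genes higher in Br and 56 higher in Ag. Leaving out an array can only loosen the rule, so all 53 members had to stay and the counts could not fall. Leaving out any other single array gave 27 to 35 and 28 to 36.

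Ratios that bear on RNA quality lay apart by phenotype. In 4 of 6 ratios of 3' to 5' signal of control transcripts every Ag array was above every Br array. The 6 ratios came from actin, GAPDH and ubiquitin alone, each read more than once, so they are not separate transcripts. For ubiquitin 1 such ratio was 2.94, 2.27 and 2.41 in Br and 3.37, 4.93 and 5.22 in Ag. The 6 two-sided exact permutation p ranged from 0.10, the smallest 3 against 3 arrays allow, to 0.20. Leaf markers were bright on every array, with RCA, LHCB4.1 and PSAE-1 between 4237 and 7185. These 3 of 8 listed leaf markers had a probe set of their own, and their sum ran from 13721 to 14983 in Br and from 15900 to 20097 in Ag. The root marker EXPA7, 1 of 4 listed, read 3.09 to 15.6 in Br and 6.79 to 17.0 in Ag. The part of RNA quality or tissue make-up in the members' differences was not tested. None of the 6 flower and seed markers listed had a probe set of its own, so these tissues could not be checked.

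Genes beside the members were taken for their position and are no members, and they were tested. The rule had looked at those of them with a locus code and had not taken them. For each member the nearest measured gene on either side in the TAIR10.1 gene order was taken, 106 genes in all, of which 50 lay directly next to the member. By limma, 8 of the 106 were called at an adjusted p of 0.05 over all probe sets, 4 higher and 4 lower in Br, which is 7.55%. The share called was 2.08% of all probe sets and 1.64% of measured genes outside the members, read by 1 probe set each. The difference between these shares was not tested. Arrays of the phenotypes did not overlap for 24 of the 106, or 22.6%, beside 20.7% of all probe sets. The call count fell to 0 without the second Br array or the second Ag array, beside 0.462% and 0.523% of all probe sets. It fell to 1, or 0.943% beside 0.629%, without the third Ag array. Without the third Br array or the first Ag array it fell to 2, or 1.89% beside 0.484% and 1.04%. At an unadjusted limma p of 0.05, 23 of the 106 passed with all arrays, or 21.7%, beside 16.1% of all probe sets. Without the second Br array it was 17, or 16%, beside 12.5%, and without the second Ag array 22, or 20.8%, beside 13.2%. The adjusted count was 8 without the first Br array, or 7.55% beside 3.89% of all probe sets. Without the first array of both phenotypes it was 2, or 1.89%, which was below the 2.34% of all probe sets. In the same fits 105 to 884 of all probe sets were called.

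The median log2 change of the neighbours was 0.036 beside genes higher in Br and -0.076 beside genes higher in Ag, on the log2(intensity + 16) scale and as Br minus Ag. Over all probe sets it was -0.0018. Neighbours had the sign of their member in 31 of 52 cases beside genes higher in Br and in 33 of 54 beside genes higher in Ag, while 49.6% of all probe sets had a positive change. AT2G25510, with the widest gap, had AT2G25500 at 3.45 ± 2.91 in Br and 2.76 ± 2.17 in Ag on one side (limma adjusted p = 0.98). On the other side AT2G25520 averaged 299 ± 68.9 in Br and 252 ± 20.0 in Ag (limma adjusted p = 0.62). Beside AT4G20480, both neighbours were below 3 on average in either phenotype.

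**Figure D4:**
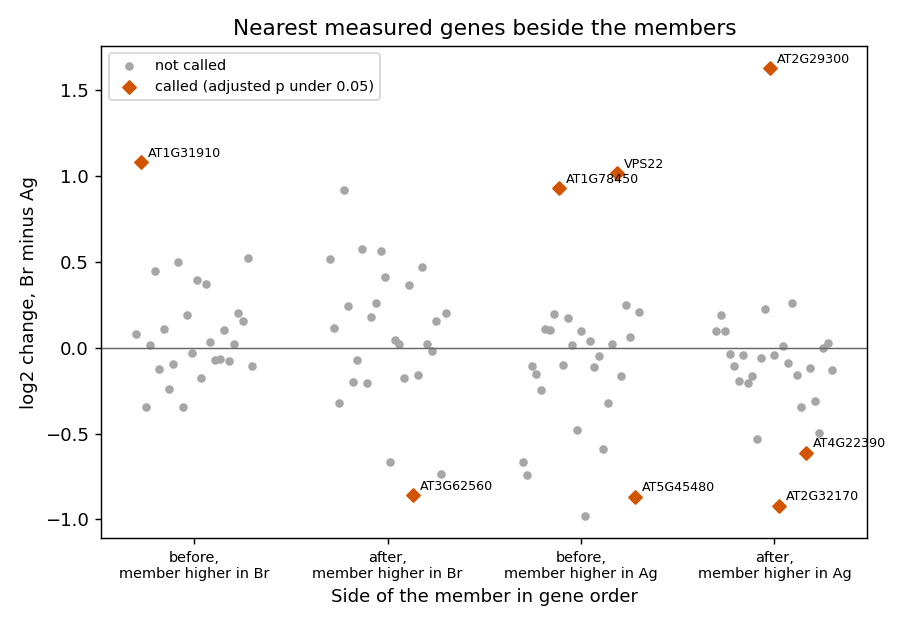
Log2 change, Br minus Ag, of the nearest measured gene before and after each member in gene order, for members higher in Br (left) and higher in Ag (right). The 8 called genes are marked apart from the rest, 4 above and 4 below 0.

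Of the 8 called neighbours, 3 belong to the family of the member beside them. AT1G78450, a SOUL family gene like AT1G78460, read 193, 179 and 166 in Br and 80.7, 99.6 and 76.3 in Ag. It rose in Br by 0.93 ± 0.14 on the log2 scale (SE, limma adjusted p = 0.024), opposite to the member. AT2G32170, a methyltransferase gene like AT2G32160, read 119, 91.2 and 113 in Br and 207, 203 and 239 in Ag. It fell by 0.92 on the log2 scale (limma adjusted p = 0.024), in the direction of the member. On the far side of AT2G32160, AT2G32150 averaged 445 ± 138 in Br and 888 ± 151 in Ag without overlap, and it missed the threshold (log2 change -0.98, limma adjusted p = 0.11). Calls of AT1G78450 and AT2G32170 were lost on leaving out any single array other than the first of Br. Over all alternatives tried, the limma adjusted p ranged from 0.014 to 0.11 for AT1G78450 and from 0.013 to 0.10 for AT2G32170.

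The other calls were in genes unlike their member. VPS22, AT4G27040, a subunit gene of the ESCRT-II sorting complex, lies beside AT4G27050 and rose in Br by 1.02 on the log2 scale, at 157 ± 18.2 in Br and 67.8 ± 5.45 in Ag (limma adjusted p = 0.014). AT1G31910, of the GHMP kinase family of isoprenoid synthesis, lies beside AT1G31920 and rose by 1.08, at 368 ± 52.1 in Br and 165 ± 6.71 in Ag (limma adjusted p = 0.013). Both calls were lost without the second Br array or the Ag array labelled 2 or 3, and that of AT1G31910 also without the first array of both phenotypes. Their limma adjusted p reached 0.075 over all alternatives. AT3G62560, a small GTP-binding protein gene beside AT3G62550, fell by 0.86, at 219 ± 35.1 in Br and 412 ± 25.3 in Ag (limma adjusted p = 0.037). AT5G45480, beside AT5G45500, fell by 0.87, at 34.6 ± 10.4 in Br and 71.8 ± 7.15 in Ag (limma adjusted p = 0.047). AT4G22390, an F-box gene beside AT4G22380, fell by 0.61 and was dim, at 0.71 ± 0.31 in Br and 8.85 ± 0.68 in Ag (limma adjusted p = 0.041). Its change depends on the pseudocount, at -2.67 with 1 (limma adjusted p = 0.010) and -0.34 with 32, where the call was lost (limma adjusted p = 0.070). Its probe set is of the kind shared between similar transcripts. AT3G62560 and AT5G45480 lost their calls on leaving out any single array other than the first of Br, and AT4G22390 on leaving out any one. Over all alternatives their limma adjusted p reached 0.13, 0.16 and 0.15.

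The closest members lay 3 genes apart and went opposite ways. AT2G29290, higher in Ag, and AT2G29320, higher in Br, stand in a row of short-chain dehydrogenase genes of the tropinone reductase kind. Between them AT2G29300 read 68.9, 124 and 124 in Br and 26.8, 17.3 and 19.0 in Ag. It met the ratio of the rule but not its level, so its values are ones the rule had looked at. It rose by 1.62 ± 0.22 on the log2 scale (SE, limma adjusted p = 0.018), and lost the call on leaving out any single array other than the first of Br. Its limma adjusted p ranged from 0.0043 to 0.091 over all alternatives. The next gene, AT2G29310, averaged 276 ± 16.2 in Br and 262 ± 52.5 in Ag and was not called (limma adjusted p = 0.81). Past AT2G29320, TRI, the tropinone reductase I-like gene, was dim at 9.51 ± 4.14 and 9.56 ± 1.60 and was not called (limma adjusted p = 0.86). AT2G29340 averaged 148 ± 50.1 in Br and 389 ± 172 in Ag without overlap but missed the threshold (log2 change -1.26, limma adjusted p = 0.14). The next closest pairs were AT1G52720 with AT1G52590, 21 genes apart, and AT3G47070 with AT3G47250, 25 apart. In each pair the first was higher in Br and the second in Ag.

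**Figure D5:**
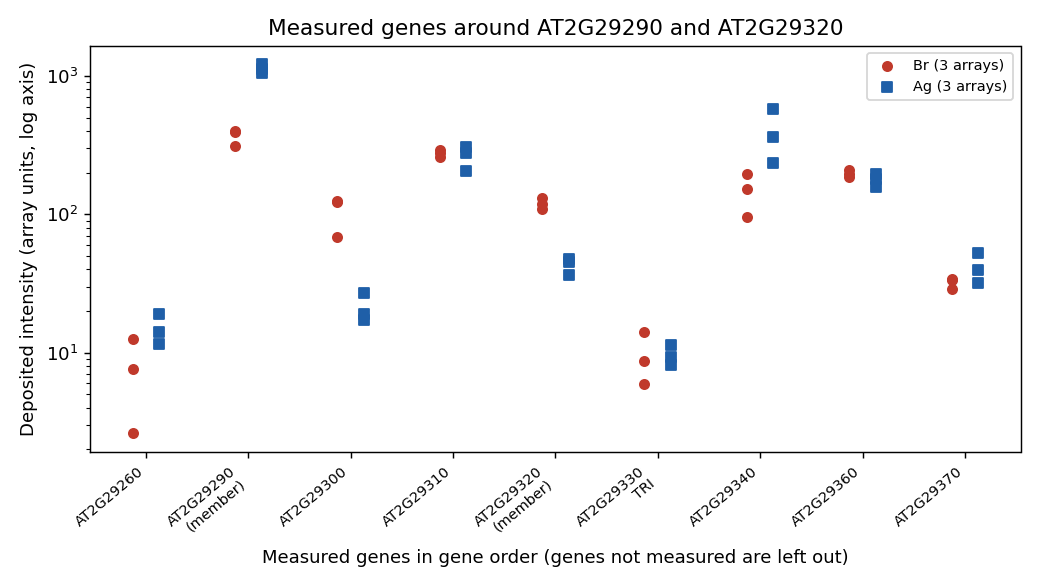
Deposited intensity (log axis) on the 3 Br arrays (circles, left) and 3 Ag arrays (squares, right) for the 9 measured genes around AT2G29290 and AT2G29320, in gene order. The phenotypes are apart in opposite directions at AT2G29290 on one side and at AT2G29300 and AT2G29320 on the other, and they overlap at AT2G29310.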

How the data were processed

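The deposited values are linear probe set intensities of one-colour, biotin-labelled arrays, per the labels' protocols. The authors had scaled each array, since the mean with 2% trimmed from each end was 100 on all 6. Per the labels, neither the summary method nor the software is known, and the number of arrays limits the precision. After removing 64 control probe sets, the rule was applied to the deposited values. Members, lists and tests were chosen with earlier results of these data known.

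Genes came from GEO's platform annotation. All 53 members matched the TAIR10.1 gene table and kept a locus code there. That table also gave the gene order. Its lack of descriptions, proteins and promoters left the planned keyword classes, closest paralogs and motifs undone. Roles are background knowledge, set after the values were seen.

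For neighbours, log2(intensity + 16) was quantile normalized, because column medians differed by 0.15, and the Br minus Ag difference was tested two-sided by lmFit and eBayes (limma 3.58.1, R 4.3.3). P-values measure the spread between arrays of pooled RNA. Benjamini-Hochberg adjustment ran over all 22746 probe sets with a threshold of 0.05. A gene with several probe sets was read by that of highest mean. The genes named were, per direction, the 12 members of widest gap and the 4 of highest mean, those nearest the limits, close pairs, and called neighbours. The remaining members are named so that all are accounted for. Plots were drawn with matplotlib 3.10.9.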

Additional observations from a re-analysis of the deposited data

How the results depend on the processing

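All 53 members stayed when symbols were updated first. Without shared probe sets 1 gene higher in Br was lost and 0 higher in Ag. Quantile-normalized values also lost 1 gene higher in Br, and gained 2 higher in Ag. Raising low arrays to their lower quartile, chosen after seeing the data, left both median gap ratios at 2.67 and 3.26. The lower quartiles were at most 9.95, far below the level the rule asked of the high arrays. Any ratio changed by this step therefore stayed well above both medians. The medians could not move, so this step is no check on them. Median-scaled values gave 19 genes higher in Br, with a median gap ratio of 3.13, and 33 higher in Ag. A level of 40 gave 45 genes higher in Br, and in Ag a median gap ratio of 3.52, while a level of 160 gave 12 and 16 genes. Asking a 3-fold gap gave 11 genes higher in Br and 16 higher in Ag, with median gap ratios of 5.25 and 6.07. A 4-fold gap gave 8 and 10, with 5.84 and 14.3. The direction of the count changes with the level and the gap asked follows from the construction of the rule. That of the median-scaled counts does not. Array medians were 35.3 to 37.5 in Br and 32.3 to 35.8 in Ag, so this scaling changes the level of one phenotype against the other. With it 7 genes higher in Br were lost and 6 higher in Ag gained, so the near balance of 26 and 27 depends on the scaling. Leaving out 1 array, which can only loosen the rule, gave 27 to 54 genes higher in Br and 28 to 56 higher in Ag. Median gap ratios then ran from 2.46 to 2.72 and from 2.67 to 3.68.

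Of all probe sets, limma called 148 with a pseudocount of 1, 889 with array weights, 111 at a threshold of 0.01 and 105 to 884 with 1 array left out. Of the 106 neighbours it called 2 with a pseudocount of 1, or 1.89% beside 0.651% of all probe sets. At 0.01 it called 0, beside 0.488% (23, or 21.7%, at an unadjusted limma p of 0.05, beside 16.1% of all probe sets). With 1 array left out it called 0 to 8. Without the first array of both phenotypes it called 2, or 1.89% beside 2.34%. None of the 8 neighbours named as called changed direction under any of these, and the cause of the lost calls was not tested. With the replicate number as a block 5 neighbours were called, or 4.72% beside 1.53% of all probe sets. Whether the replicate numbers pair the arrays cannot be told from the correlations. Deviations of same-numbered arrays correlated at 0.32, 0.029 and 0.11, and the value for the first arrays was the highest between any Br and Ag array. Not every array correlated best with its own number: the second Br array did so with the third Ag array, at 0.23. The search for closest paralogs was not run.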
